A study of Mus musculus with 4 samples.

Results

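The genes described here are 6 of a list for liver progenitor cells and the fetal liver program that returns in liver cancer: Afp, Cd24a, Cd44, Glul, Hmga2 and Lin28b, out of 21887 protein-coding genes with a known nuclear position. Glul is also a gene of adult hepatocytes around the central vein, so its place on this list is the loosest. The 6 genes were chosen from the readout itself. Each has a peak of MYCN, a transcription factor of the MYC family, that the authors paired with it at any distance or that lies in it or within 10 kb of it, in tumor or in non-tumor liver. Their peaks number 5 of 1617 in the tumor and 1 of 55 in non-tumor liver.

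The peaks come from CUT&RUN, in which an antibody brings a nuclease to a chromatin protein and the DNA it cuts free is sequenced. An anti-MYCN antibody was used on mouse liver tumors driven by MYCN together with AKT, a growth-promoting kinase, and on non-tumor liver matched to them. Sonicated input chromatin of each tissue served as the negative control. There are 4 groups, the anti-MYCN library and the input of each tissue, and every group is 1 library. The labels give the tissue as liver and the genotype as Tumor or Non-tumor. The sources used here do not state how MYCN and AKT were delivered, the strain or age of the mice, or how many animals gave each library. No difference between the tissues has a replicate check, and the depth of the libraries is unknown. A peak in bulk tissue cannot tell a few strongly bound cells from many weakly bound ones. Peaks show no RNA level, so whether these genes were expressed in the tumors was not measured.

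Liver progenitor and oncofetal genes are active in the embryonic liver, largely silent or restricted in the adult organ, and often switched on again in regeneration and in hepatocellular carcinoma. LIN28B and HMGA2 form one axis of this program: LIN28B is an RNA-binding protein that blocks the maturation of let-7 microRNAs, and HMGA2, a chromatin protein, is a classic let-7 target. MYC-family proteins bind DNA with their partner MAX, with the E-box CACGTG as the preferred site, mostly close to the start sites of genes.

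None of the 5 genes with a listed RefSeq start site had a peak of either tissue centred within 1 kb of it. The 300 base promoter windows of Lin28b, Glul and Afp are shown because they are where a MYC-family factor would be looked for and because they hold E-boxes. Each runs from 250 bases before to 50 after the start site, 5′ to 3′ on the strand of the gene (RefSeq, GRCm38.p6). Capitals mark every CANNTG, the general E-box pattern, of which CACGTG is one form. Both read as the same pattern on either strand.
Lin28b (chr10:45470152-45470451, minus strand): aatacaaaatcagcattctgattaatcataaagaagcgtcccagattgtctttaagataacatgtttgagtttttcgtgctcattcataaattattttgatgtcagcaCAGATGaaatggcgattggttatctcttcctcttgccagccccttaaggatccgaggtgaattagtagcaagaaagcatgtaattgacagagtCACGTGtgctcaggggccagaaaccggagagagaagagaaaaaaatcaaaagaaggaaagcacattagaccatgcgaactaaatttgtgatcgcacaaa
Glul (chr1:153899679-153899978, plus strand): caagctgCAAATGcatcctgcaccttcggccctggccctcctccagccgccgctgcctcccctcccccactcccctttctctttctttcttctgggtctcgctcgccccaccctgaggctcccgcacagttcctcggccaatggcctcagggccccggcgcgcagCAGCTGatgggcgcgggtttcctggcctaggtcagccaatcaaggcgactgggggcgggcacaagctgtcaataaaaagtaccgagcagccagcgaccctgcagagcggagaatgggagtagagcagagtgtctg
Afp (chr5:90490464-90490763, plus strand): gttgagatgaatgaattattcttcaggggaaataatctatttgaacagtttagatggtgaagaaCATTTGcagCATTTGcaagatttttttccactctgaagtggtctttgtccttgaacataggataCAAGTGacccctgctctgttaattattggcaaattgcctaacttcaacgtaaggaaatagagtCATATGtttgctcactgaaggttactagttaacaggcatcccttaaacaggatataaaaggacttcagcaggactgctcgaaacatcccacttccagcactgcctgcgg
The Lin28b window held the canonical CACGTG with its first base 49 bases before the start site, and a CAGATG 142 bases before it. It was the single window of the 5 with CACGTG, a hexamer that 7.84% of the 21263 windows of protein-coding genes hold. The Glul window held CAAATG and CAGCTG, 243 and 85 bases before the start. The Afp window held 4 E-boxes, CATTTG at 186 and again at 177 bases before the start, CAAGTG at 122 and CATATG at 59. The Cd44 and Hmga2 windows held no CANNTG, a pattern present in 69% of all windows. These matches describe the letters only. Over all protein-coding genes with a listed start site, 10 of 17492 (0.0572%) had a tumor peak centred within 1 kb of one, and 1 (0.00572%) a non-tumor peak, so a gene without such a peak is the usual case in these lists.

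The peaks of the 6 genes lay far from start sites, at both sides of the genes and inside them. By the authors' pairing, 4 of the 6 genes had a tumor peak: Cd24a, Cd44, Glul and Hmga2. The same pairing, at any distance, gave a tumor peak to 4.72% of protein-coding genes. By position, 2 of the 6, Cd44 and Lin28b, had a tumor peak in the gene or within 10 kb, as did 3.65% of protein-coding genes. Both peaks overlapped the gene itself, as was the case for 2.46%. Afp alone had a non-tumor peak there, against 0.0868%. Nothing can be read from these shares, since the peaks were what chose the genes. The 10 kb limit fell between Cd44 and Lin28b, whose peaks overlapped the gene (gap of 0 bp), and Cd24a, whose peak was 16105 bp away.

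**Figure D1:**
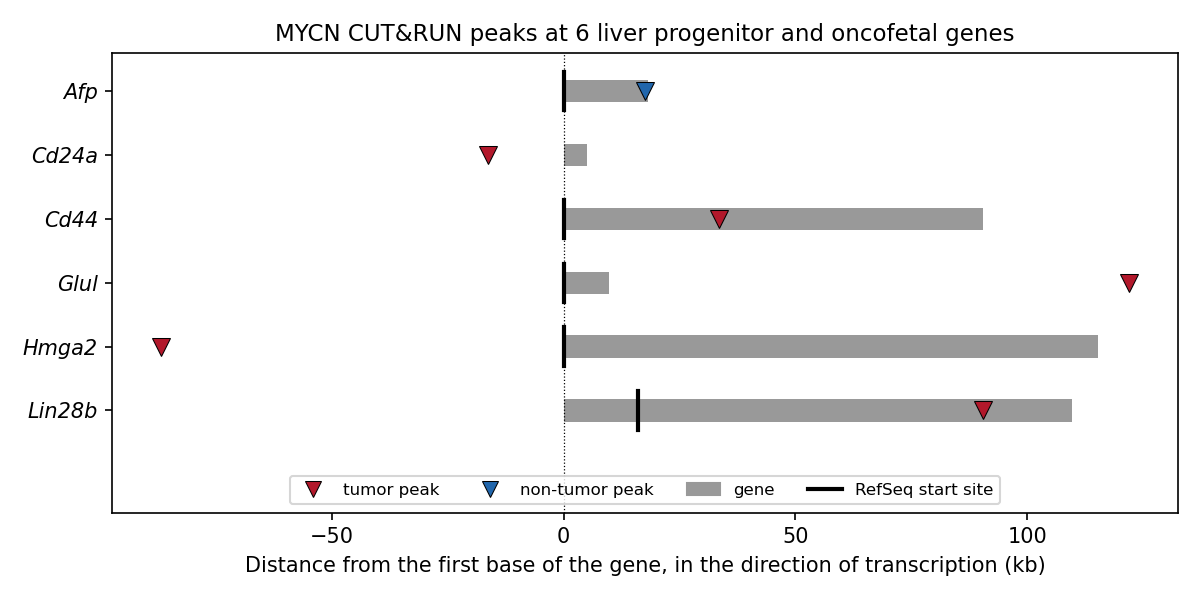
Position of the peak of each of the 6 genes (rows). The x axis is the distance in kb from the first base of the gene, in the direction of transcription. Grey bars are the genes at their annotated length, black ticks the RefSeq start sites of the 5 genes with one listed, red triangles tumor peak centres and the blue triangle the non-tumor peak centre; the direction of Cd24a follows the authors' call of its peak as upstream. No triangle sits at a start site, and those of Glul and Hmga2 are 112072 and 86792 bp outside the gene.

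Lin28b had a tumor peak in the later part of the gene. The gene spans chromosome 10, 45376617 to 45486314, on the minus strand, and the peak was at 45395660 to 45395974. Its centre was 74.4 kb downstream of the RefSeq start site whose promoter is printed above, the one with CACGTG. Measured from the outermost annotated base of the gene it was at 82.5% of the gene's length, 90.5 kb in. The peak was 315 bp long, with a −log10 q of 3.90, the authors' own score of a peak against input, where larger is stronger. It ranked 1196 of 1617 tumor peaks and shared this value with no other peak. The authors paired it with Bves, which encodes a membrane protein of muscle and epithelium, as downstream of that gene at a gap of 23176 bp. A list of the authors' paired genes would therefore not show Lin28b.

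Hmga2 had a weak tumor peak upstream. The peak, at chromosome 10, 120563261 to 120563427, lay 86792 bp from the gene (120361268 to 120476469, minus strand), before its start site. It was 167 bp long with a −log10 q of 2.29, and 54 tumor peaks had exactly this value, which put it between ranks 1448 and 1501. It was the weakest of the 5 tumor peaks. No other protein-coding gene lay between the peak and Hmga2, and the nearest other one, Msrb3, a methionine sulfoxide reductase gene, was 217673 bp away.

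The other genes of the LIN28 and let-7 axis are given for comparison. Of 19 on a list of this axis, 0 had a tumor peak in the gene or within 10 kb and 0 were paired with one. Over all protein-coding genes the shares were 3.65% and 4.72%, so a list of this length would usually have 0 or few. The closest was 147791 bp from Lin28a, the paralog of Lin28b, and 154076 bp from the cyclin gene Ccnd2. The let-7 target gene Trim71 was 426580 bp from a tumor peak, and the microRNA-processing gene Dicer1 681989 bp. For the RNA-binding genes Igf2bp1, Igf2bp2 and Igf2bp3, known let-7 targets, the distances were 792668, 1037345 and 1314994 bp, and for Hmga1, the paralog of Hmga2, 2253795 bp. Of the 12 let-7 microRNA genes, 0 had a tumor peak within 10 kb, which at 3.65% of protein-coding genes is the usual case. Among protein-coding genes under 20 kb the share was 1.51%, and these microRNA genes are far shorter. Some of the 12 lie together and have the same closest peak, so they are not separate counts. Mirlet7c-1 was the nearest at 133235 bp, and the median over the 12 was 792 kb, against 593 kb over all protein-coding genes.

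Cd44 and Cd24a encode surface proteins used to sort progenitor and tumor-initiating cells. CD44 is the main receptor for the matrix polymer hyaluronan. Its gene (chromosome 2, 102811141 to 102901669, minus strand) held a tumor peak at 102868092 to 102868293, 33.5 kb downstream of the start site and at 37.0% of the gene's length. The authors also placed it inside Cd44. The peak was 202 bp long with a −log10 q of 3.20, a value that 71 tumor peaks had, so its rank was anywhere from 1306 to 1376. Those 71 peaks were 115 to 374 bp long, and 25 of them lay inside a protein-coding gene. The share of all tumor peaks inside such a gene is not given here, so this count has no background. Whether this and the other positions are exonic or intronic was not analysed here.

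Cd24a encodes CD24, a small, heavily glycosylated protein on a lipid anchor. Its tumor peak, at chromosome 10, 43562695 to 43563064, was upstream by the authors' call and 16105 bp from the gene (43579169 to 43584265). With a −log10 q of 7.93 and rank 642 it was the strongest peak of the 6 genes in the tumor list, and the sole one above the tumor median of 6.35. It was also the longest of the 5 tumor peaks, at 370 bp, and 14.8% of tumor peaks were longer. No gene of any type lay within 10 kb of the peak, and the nearest other protein-coding gene, Mtres1, was 21654 bp away.

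Of 17 other genes for hyaluronan, CD44 or CD24 binding, 1 had a tumor peak within 10 kb (5.88%, beside 3.65% of protein-coding genes). It was Siglecg, which encodes the mouse counterpart of a CD24 receptor of immune cells. The peak was 610 bp upstream of Siglecg, 143 bp long, and among the weaker ones (−log10 q 1.98, ranks 1534 to 1572). The hyaluronan-binding proteoglycan gene Vcan had a peak of 79.9 (rank 126) at 31045 bp. The authors assigned it to Hapln1, a gene that the list of 17 leaves out. The hyaluronan synthase gene Has2 was paired with a peak of 8.40 at 174168 bp. Siglecg and Has2 were the 2 of the 17 (11.8%) that the authors paired with a tumor peak, beside 4.72% of protein-coding genes. These counts are too small to set the list apart. Spp1, encoding osteopontin, a CD44 ligand and progenitor marker, was 373860 bp from its closest tumor peak. The median distance of the 17 to a tumor peak was 215 kb, against 593 kb over all protein-coding genes, a difference that was not tested.

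Glul encodes glutamine synthetase, which in the adult liver is confined to the hepatocytes around the central vein and is a target of Wnt and beta-catenin signaling. Its paired tumor peak was the most distant of the 5. It lay at chromosome 1, 154021795 to 154021976, downstream, 112072 bp from the gene (153899929 to 153909723, plus strand). The peak was 182 bp long with a −log10 q of 2.87, shared by 5 peaks (ranks 1383 to 1387). A second tumor peak followed 143621 bp from Glul, and the authors paired it with Zfp648. No other protein-coding gene lay between Glul and its peak. Within 10 kb of the peak the annotation has 1 locus, LOC108167736.

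Among 22 other pericentral and Wnt target genes, 0 had a tumor peak within 10 kb, beside 3.65% of protein-coding genes, and 2 (9.09%) were paired with one, beside 4.72%. Counts this small set nothing apart. The authors paired Znrf3, a ubiquitin ligase gene that lowers Wnt receptors, with a peak of −log10 q 3.56 at 19411 bp. They paired Nkd1, a Wnt inhibitor gene, with one of 5.48 at 22919 bp. Both peaks were upstream. The stem cell receptor gene Lgr5 was 401195 bp and the feedback gene Axin2 655468 bp from a tumor peak. The glutamate transporter gene Slc1a2, which is also pericentral, had as its closest the peak inside Cd44, at 77308 bp. In non-tumor liver the authors paired Axin2 with a downstream peak of 7.61, rank 30 of 55, at 60924 bp.

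Afp encodes alpha-fetoprotein, the fetal relative of albumin and a serum marker of hepatocellular carcinoma. It was the one gene of the 6 with a peak in non-tumor liver and without one in the tumor. The non-tumor peak was at chromosome 5, 90507772 to 90508632, within the gene (90490714 to 90508907, plus strand). With the strand taken into account it lay at the far end of the gene. It began 17058 bp and ended 17918 bp downstream of the start site, 275 bp before the last annotated base. At 861 bp it was the fourth longest of the 55 non-tumor peaks, and its −log10 q of 4.47 ranked 39. The authors paired it with the next gene, Afm, which encodes afamin of the same protein family, as upstream at 10317 bp. Alb, the albumin gene, was 31170 bp from it. The closest tumor peak was 388583 bp from Afp, and 38.2% of protein-coding genes had a closer one. Of 13 other genes of the albumin family or regulating Afp, 0 had a tumor peak within 10 kb, beside 3.65% of protein-coding genes, and the nearest was at 36281 bp from Foxa1, a pioneer factor gene.

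**Figure D2:**
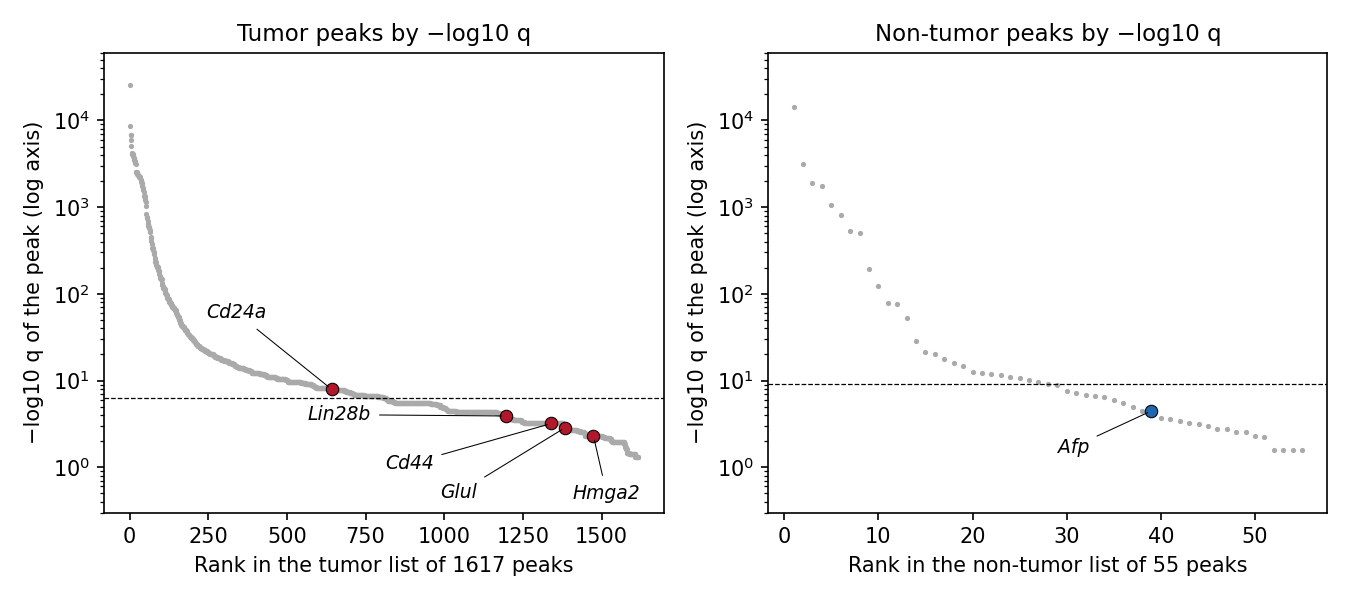
−log10 q of every peak (y axis, log scale) by its rank in its own list (x axis), for tumor (left) and non-tumor liver (right). Coloured points are the peaks of the 6 genes, placed at the middle of their tied ranks, and dashed lines are the list medians (6.35 and 9.24). Cd24a is above the tumor median, and the other 4 tumor peaks and the Afp peak are below their list's median.

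All 6 peaks belonged to the moderate or weak part of their lists. Of the 5 tumor peaks, 4 were below the tumor median −log10 q and 0 reached 10, a level that 31.0% of tumor peaks reached. The share of tumor peaks as strong or stronger was 39.7% for Cd24a, 74.0% for Lin28b, 85.1% for Cd44, 85.8% for Glul and 92.8% for Hmga2. For Afp it was 70.9% of non-tumor peaks. The lists differ in length, so these shares are not compared between tissues. None of the 6 peaks lay in a cluster (3 or more peaks at most 10 kb apart), and 0 overlapped a peak of the other tissue. Most peaks were like them in this: 1476 of 1617 tumor peaks and 36 of 55 non-tumor peaks lay outside clusters, scaffolds and shared positions.

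**Figure D3:**
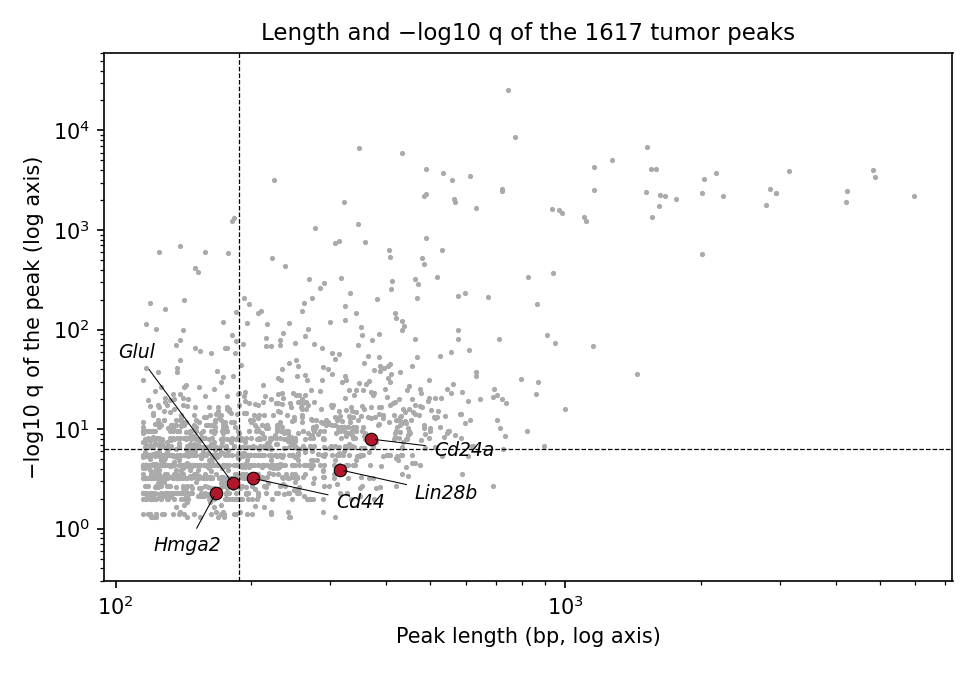
Length in bp (x axis, log scale) and −log10 q (y axis, log scale) of the 1617 tumor peaks (grey), with the peaks of the 5 genes in red. Dashed lines are the medians, 188 bp and 6.35. Cd24a and Lin28b have the longer peaks, at 370 and 315 bp, and Cd44, Glul and Hmga2, at 202, 182 and 167 bp, are close to the median length.

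Within 1 Mb of the gene there were 3 tumor peaks at Glul and at Hmga2, 2 at Lin28b and 1 each at Afp, Cd24a and Cd44. These counts include the peaks that chose the genes. The median over protein-coding genes was 1, with quartiles of 0 and 2. After the peak inside Cd44 the next tumor peak was 2390008 bp away, and after the Cd24a peak 1811395 bp. Chromosome 10 carried 3 of the 5 tumor peaks, those of Cd24a, Lin28b and Hmga2, out of 74 on that chromosome and 1617 in all. These 3 genes lie on chromosome 10 themselves, so the count follows from which genes were chosen. The non-tumor list had 0 peaks within 1 Mb of each of the 5 genes with tumor peaks, as at the median protein-coding gene. The closest non-tumor peak was 4143842 bp from Cd44, 27707507 bp from Lin28b and farther still from Cd24a, Glul and Hmga2. The median over protein-coding genes on chromosomes with a non-tumor peak was 20520 kb, and 9.22% of protein-coding genes had a closer one than Cd44. Chromosome 10 had a single non-tumor peak in all. With 55 peaks in the genome and 1 library a tissue, this does not show that the tissues differ at these genes.

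Gene length differed among the 6. Cd44, Lin28b and Hmga2 are 90529, 109698 and 115202 bp long, and Cd24a, Glul and Afp 5097, 9795 and 18194 bp. The tumor peaks inside a gene, at Cd44 and Lin28b, were in long ones. Of 1214 protein-coding genes of 80 to 120 kb, 6.43% had a tumor peak in the gene or within 10 kb, and of 11848 under 20 kb, 1.51%. Whether length plays a part in which of the 6 had such a peak was not tested.

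The wider list of liver progenitor and oncofetal genes, 35 with the 6 members, was written with earlier results of these data known. Of its 29 other genes, 1 (3.45%) had a tumor peak in the gene or within 10 kb, beside 3.65% of protein-coding genes. This was Ncam1, a neural adhesion gene also found on reactive ductular cells, with a peak inside the gene at chromosome 9, 49553994 to 49554329 (−log10 q 9.50). The authors paired that peak with Gm11149, and gave Ncam1 another one 21075 bp upstream (49820468 to 49821181, 714 bp, 10.2). Ncam1 is 297265 bp long, longer than each of the 6 members, and whether its length plays a part was not tested. The authors paired Thy1, a surface marker of progenitor and mesenchymal cells, with a peak of 17.4 at 24016 bp. With Ncam1 that makes 2 of the 29 genes (6.9%) paired with a tumor peak, beside 4.72% of protein-coding genes. The imprinted gene Peg10 was just outside the limit, 11761 bp from a peak of 4.33 that the authors placed inside its neighbor Sgce.

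Distances of other well-known markers, chosen after their values were seen, lay on both sides of the 593 kb median of all protein-coding genes. The closest tumor peak was 219910 bp from the ductal factor gene Sox9, 407303 bp from Epcam, 498708 bp from Krt19 and 2645399 bp from Prom1. For the fetal growth factor gene Igf2 it was 882465 bp, for Dlk1 393462 bp and for the X-linked glypican gene Gpc3 18881518 bp. The median over the 35 genes was 393 kb. The 35 genes include the 6 chosen for having a peak, so this median is not set against that of all genes. Over the 29 others it was 423 kb. Without members, the other lists lay on both sides of 593 kb. Their medians were 215 kb for the hyaluronan list, 332 kb for the pericentral, 644 kb for the albumin and 759 kb for the LIN28 list. Leaving out the members removes genes chosen for a peak, and no difference was tested.

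**Figure D4:**
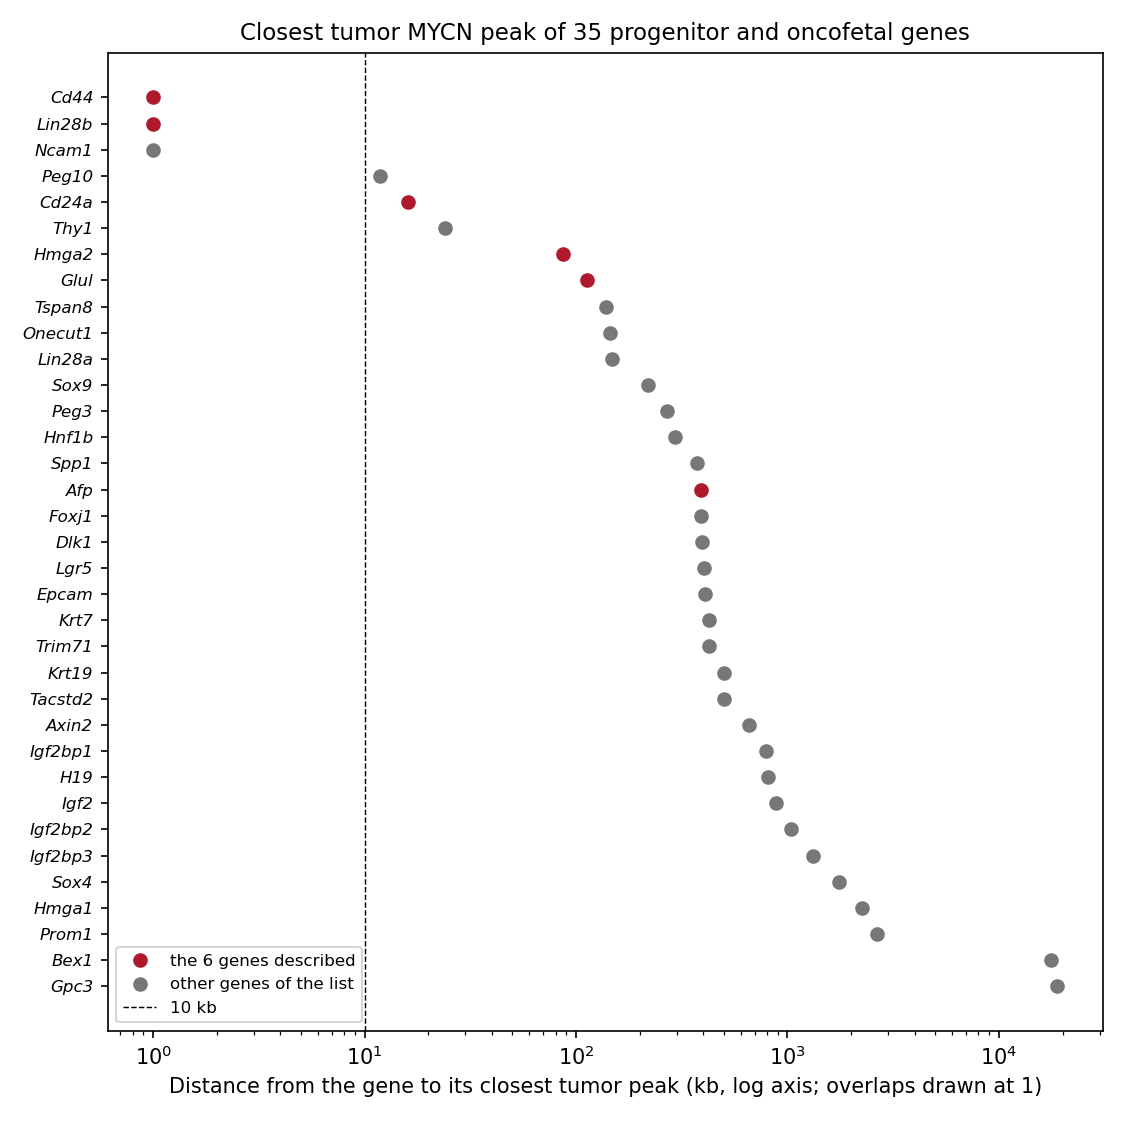
Distance in kb (x axis, log scale) from each of 35 liver progenitor and oncofetal genes (rows) to its closest tumor peak, with peaks overlapping a gene drawn at 1 and a dashed line at 10 kb. Red points are the 6 genes described and grey points the 29 others. Cd44, Lin28b and Ncam1 lie left of the line, and Peg10, Cd24a and Thy1 follow at 11761, 16105 and 24016 bp.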

How the data were processed

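Anti-MYCN and input CUT&RUN libraries of tumor and non-tumor liver gave 1 deposited peak table. Per the submitters' processing notes, the tools included HOMER, MACS2, deepTools and Bowtie2, and the builds were mm10 and GRCm38. The sources used here state no version, order or setting. The peak names show that peaks were called for the anti-MYCN library against input. The q-value column was read as −log10 q as deposited by the authors, since its lowest tumor value (1.30) is just above −log10 of 0.05. The table holds no counts, so depth is unknown. Peak lengths are in bp as deposited.

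Rows of a tissue with the same interval were merged, 1620 to 1617 in tumor and 61 to 55 in non-tumor liver. Ranks run from the strongest peak, with ties given as a range. Distances were taken to RefSeq genes of GRCm38.p6, and start sites, strands and promoters from RefSeq for 5 of the 6 genes; all 6 matched by symbol. Peak sequences were not used. With 1 library per group and genes chosen from these peaks, no test was made, and p-values are not given. The genes and the 6 gene lists were chosen with earlier results of these data known.

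Named genes are the 6 members, other genes that the authors paired with their peaks, list genes with a peak in or within 10 kb or up to 50 kb away, and the gene closest in rank to each tumor peak. Where peaks tied, deposited order chose the gene closest in rank. Other list genes were named after their values were seen. A further gene close in rank to a tumor peak is not reported here. Alternatives were distances of 0, 1 and 50 kb, a −log10 q at or above the median or of 10 or more, ranks without merging rows, and leaving out clusters, scaffolds and positions shared between tissues (overlap of 1 bp or more). Distances were tested on simulated data. Calculations used Python 3.11.15, NumPy 2.4.6, pandas 2.3.3 and SciPy 1.17.1.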

Additional observations from a re-analysis of the deposited data

How the results depend on the processing

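Thresholds on the peak score removed most of what was counted. At or above the list's median −log10 q, the genes of the 6 with a peak in or within 10 kb went from 2 to 0 in tumor and from 1 to 0 in non-tumor liver, those paired with a tumor peak from 4 to 1 (Cd24a), and the genes of the 35 with a tumor peak within 10 kb from 3 to 1. At a −log10 q of 10 or more all 4 counts were 0. These settings leave fewer peaks. At 50 kb the list count was 6, and 2 of the 4 paired genes had their peak that close. Of all protein-coding genes, 4.47% had a tumor peak closer than 16105 bp and 12.6% closer than 86792 bp. The share at 50 kb therefore lies between these, above the 3.65% at 10 kb. Shares of all protein-coding genes at the score thresholds are not given here, so the counts there have no background. The counts at 0 kb, at 1 kb and without clusters, scaffolds and shared positions were those of the report. Of 40 recomputed values, 26 stayed within 1.5 times the count or the 95% binomial interval of the share, and 14 moved. Those that moved include shares of tumor peaks as strong or stronger. Without clusters, scaffolds and shared positions the share went from 39.7% to 35.0% for Cd24a and from 74.0% to 71.7% for Lin28b. With ties at their lowest rank it went from 85.1% to 80.8% for Cd44 and from 92.8% to 89.5% for Hmga2. No paired analysis was possible because there is just 1 library per group, and no replicate could be left out. Unknown depth limits every statement on a missing peak.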

Other observations

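The tumor peaks nearest in rank to those of the 5 genes with one, among peaks in or within 10 kb of a protein-coding gene, lay inside genes of other kinds. Just above Cd24a was a peak of −log10 q 8.06 inside Caln1, a neuronal calcium-binding protein gene. Below the Cd24a peak, 33 tumor peaks share 7.88 (ranks 643 to 675). For none of the 5 genes is there a single neighbor on both sides, because of ties. Just above Lin28b, 6 tumor peaks share 4.04 (ranks 1190 to 1195). The values of the Glul, Cd44 and Hmga2 peaks are held by 5, 71 and 54 tumor peaks. In deposited order the closest to Lin28b was inside Cfap300, a cilia gene. The authors placed another of those 6 inside a gene too. A peak inside Vti1a, a vesicle trafficking gene, had the same 2.87 as that of Glul. In deposited order the closest were inside Pdcd4, a translation inhibitor gene, for Cd44 (3.20) and inside Ank3, an ankyrin gene, for Hmga2 (2.29). Among the 54 peaks with the value of the Hmga2 peak, 22 lay inside a protein-coding gene, a count given without the share over all tumor peaks.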
